A study of Mus musculus with 48 samples.

Results

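The genes described here are 8 transcription factors of the iris and anterior eye, namely *Pax6*, *Otx1*, *Six3*, *Six6*, *Tfap2b*, *Lmx1b*, *Foxc1* and *Foxc2*. They were chosen by name from the 46517 genes of the count tables. Of the 8, 7 passed the filter on low counts when explants were compared with irises, and *Foxc2* did not.

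The RNA came from 16 samples in 5 groups, all with the genotype WT Albino and the strain C57BL/6N in the labels. The methods name adult mice of both sexes and an Albino B6/J strain, so the substrain is uncertain. The 5 explants were taken 2 months post-tx and hold liver spheroids, made from primary hepatocytes of albino mice and engrafted in the anterior chamber of the eye (ACE), together with the iris around them. The 3 naïve irises are iris tissue that carries no explant. The other groups are 3 endogenous livers of donor mice, 3 isolated hepatocyte preparations, which were enriched for hepatocytes and not purified, and 2 samples of in vitro spheroids. Explants were dissected by hand, so the amount of iris in each was not fixed, and the labels do not say whether an iris sample is 1 eye or a pool. The labels do not name the animal behind each sample, so p-values measure the spread between these samples.

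The vertebrate eye is built from several embryonic sources. PAX6, a paired-box and homeodomain factor, together with the homeodomain factors OTX1, SIX3 and SIX6, acts in the neural ectoderm that forms the optic cup, whose rim becomes the epithelia of iris and ciliary body. The AP-2 factor TFAP2B, the LIM-homeodomain factor LMX1B and the forkhead factors FOXC1 and FOXC2 act in the periocular mesenchyme, which supplies the iris stroma, the drainage angle and part of the cornea. Loss of 1 copy of PAX6 causes aniridia in humans, and FOXC1 variants cause anterior segment dysgenesis.

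In the naïve iris 7 of the 8 factors were expressed, and their levels, in TPM (transcript levels corrected for gene length and sequencing depth), covered a wide range. *Pax6* was the highest at 200.2 ± 3.78 TPM (SD, n = 3), followed by *Otx1* at 74.1 ± 6.51, *Tfap2b* at 48.6 ± 6.59 and *Six6* at 19.3 ± 4.44. These 4 stood apart from each other and from the rest in every iris. *Six3* (12.1 ± 0.55 TPM), *Lmx1b* (11.5 ± 2.04) and *Foxc1* (10.3 ± 1.199) overlapped with their neighbours in this order. Among all genes *Pax6* held rank 1029 in the iris, and *Foxc1* rank 11722.

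The explants kept the same 4 genes at the top. *Pax6* was at 161 ± 26.2 TPM (SD, n = 5), *Otx1* at 67.7 ± 11.8, *Tfap2b* at 33.96 ± 6.23 and *Six6* at 19.8 ± 5.63, followed by *Lmx1b* (11.5 ± 2.14), *Six3* (10.1 ± 2.93) and *Foxc1* (7.31 ± 1.43). From *Six6* down to *Foxc1*, neighbours in this order overlapped between explants.

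**Figure D1:**
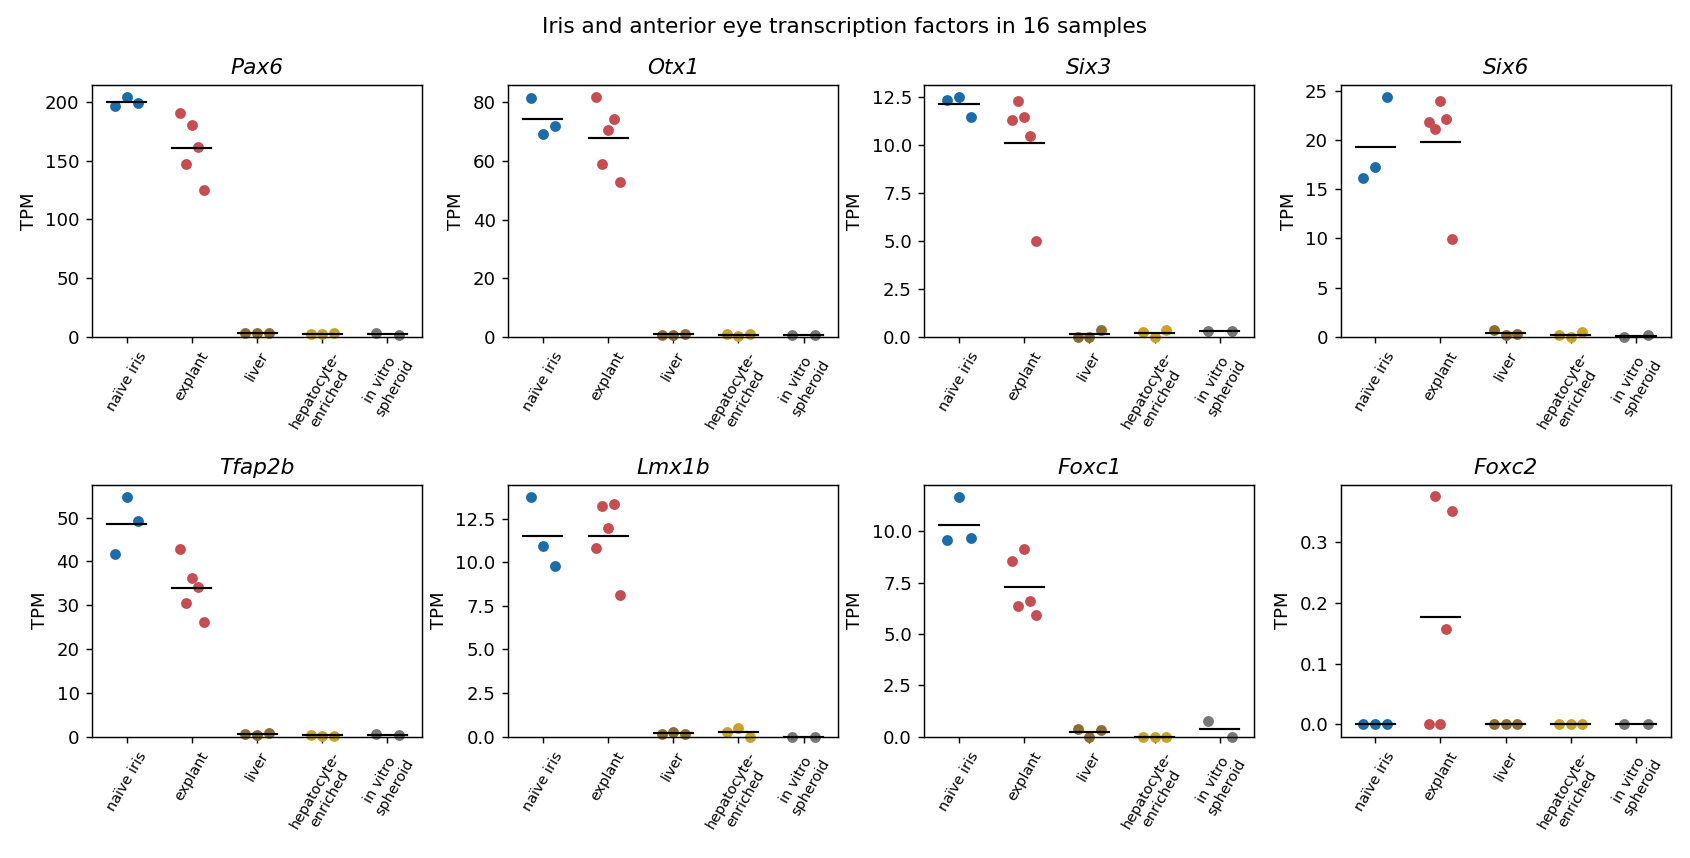
Level of each factor in TPM (vertical axis, linear, 1 panel per gene with its own scale) in the 3 naïve irises, 5 explants, 3 livers, 3 hepatocyte-enriched preparations and 2 in vitro spheroid samples; points are samples and bars are group means. Of the 8 genes, 7 were at 7.31 TPM or more on average in irises and explants and near 0 in the liver groups, and *Foxc2* did not pass 0.375 TPM in any sample.

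In liver and in cells derived from it the factors were low. *Pax6*, which had 162 counts over the 3 livers, was at 3.17 ± 0.23 TPM in livers, 2.73 ± 0.61 in hepatocyte preparations and 2.39 ± 1.04 in in vitro spheroids. The liver value was 1.58% of the iris value. *Otx1* in livers was at 1.08% and *Tfap2b* at 1.18% of their iris levels. The other 4 expressed factors had 3 to 7 counts summed over the 3 livers. *Foxc1* had 0 counts in all 3 hepatocyte preparations, and the iris was at least 51.1-fold higher when 3 counts over the group are taken as the limit. *Lmx1b* had 0 counts in both in vitro spheroid samples, which puts the iris at least 47.8-fold higher. The liver level had a median of 1.58% of the iris level over the 7 factors, beside 1.14% over 17 retina markers, 1.78% over 12 lens markers and 4.20% over 13 melanocyte markers. The part of carry-over between libraries in these traces was not tested.

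Irises were compared with livers to show where the factors are expressed. A gene counted as called when edgeR's quasi-likelihood test gave an adjusted p (Benjamini-Hochberg) under 0.05 together with a log2 fold change beyond 1 in either direction. All 7 testable factors were called higher in iris, with log2 fold changes from 4.51 for *Foxc1* to 5.63 for *Otx1*, in a comparison in which 51.9% of 15459 genes were called, 29.8% higher and 22.1% lower. *Pax6*, with 49 to 57 counts in each liver, had counts in both tissues. The other 6 had at most 8 counts in a liver and passed the filter on low counts through the iris, so they had to differ, and the count is given as a description.

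*Pax6* (ENSMUSG00000027168, chromosome 2, 105668900 to 105697364, plus strand), *Foxc1* (ENSMUSG00000050295, chromosome 13, 31806691 to 31810643, plus strand) and *Six3* (ENSMUSG00000038805, chromosome 17, 85613608 to 85629302, plus strand) are given in the coordinates of the deposited counts, in mm10. The 250 bases before the RefSeq start (GRCm38.p6) are shown for these 3. *Pax6* and *Foxc1* had explants and irises that did not overlap, and *Six3* had an explant far from the others. *Six6* also had such an explant, and its window is not shown. Capitals mark matches on either strand to the AP-2 site, spelled GCCNNNGGC. They also mark the CCAAT box, searched by those 5 letters. The last motif in capitals is the GC box, spelled GGGCGG. The windows are chr2:105668646-105668895, chr13:31806396-31806645 and chr17:85620584-85620833, all on the plus strand.
Pax6: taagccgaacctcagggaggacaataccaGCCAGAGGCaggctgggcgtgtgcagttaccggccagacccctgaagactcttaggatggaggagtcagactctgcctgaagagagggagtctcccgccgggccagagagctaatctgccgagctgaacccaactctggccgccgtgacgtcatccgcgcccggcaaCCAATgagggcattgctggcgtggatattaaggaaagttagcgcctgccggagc
Foxc1: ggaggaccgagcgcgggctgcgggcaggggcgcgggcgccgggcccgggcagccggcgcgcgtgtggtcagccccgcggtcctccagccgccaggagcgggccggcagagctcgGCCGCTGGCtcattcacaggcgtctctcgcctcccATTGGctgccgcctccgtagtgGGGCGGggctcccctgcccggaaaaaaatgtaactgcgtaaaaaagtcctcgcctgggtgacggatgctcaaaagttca
Six3: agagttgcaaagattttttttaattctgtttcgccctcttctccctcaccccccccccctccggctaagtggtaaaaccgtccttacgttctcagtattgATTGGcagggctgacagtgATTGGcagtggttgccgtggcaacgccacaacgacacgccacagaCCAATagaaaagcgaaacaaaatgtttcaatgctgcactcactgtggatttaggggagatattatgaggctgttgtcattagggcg
The AP-2 letters stood in the *Pax6* window 221 bases and in the *Foxc1* window 136 bases before the start, and in 13.7% of 32851 windows of the same length. CCAAT occurred in 5 of the 7 windows found for 6 of the factors, against 33.8% of all windows, and 3 times in that of *Six3*. GGGCGG stood in 2 of the 7, against 32.7% of all windows. The forkhead site, searched as GTAAACA, was in none of the 7 and in 3.17% of all windows. The bicoid site, searched as TAATCC, was in none of the 7 and in 6.25% of all windows. The same held for the homeodomain palindrome TAATTA, found in 4.84% of all windows. The TATA box, searched as TATAAA, was also in none of the 7 and in 12.4% of all windows. No match overlapped another. The *Pax6* window is the more upstream of 2 listed for the gene and lies inside the span of the antisense gene *Pax6os1*. The *Six3* window lies inside the counted span of *Six3*, not before it, and holds 0 of its exon bases. In that window 44 bases are exon of the antisense gene *Gm28528*.

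Explants were then compared with irises without correction for their mixture. None of the 7 tested factors was called, while 6.47% of 16764 genes were, 1032 higher (6.16%) and 53 lower (0.316%). Without the fold change limit 11.8% of genes passed the adjusted p (9.04% higher and 2.74% lower), and again 0 of the 7 factors. At an unadjusted p under 0.05 edgeR listed 3 factors as lower (9.96% of genes) and 0 as higher (17.6% of genes). The median log2 fold change of the 7 was −0.17, beside 0.01 for all genes tested.

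*Pax6* was at 197, 204 and 199 TPM in the irises and at 191, 147, 181, 162 and 125 TPM in explants 1, 2, 4, 5 and 6. Every explant lay below every iris, and the difference was small (log2 fold change −0.23, SE 0.08, 95% interval −0.41 to −0.04). It did not pass correction (edgeR, adjusted p = 0.111). The irises varied by 1.89% (coefficient of variation) and the explants by 16.3%, where counting alone would give 1.61% for the explants.

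*Foxc1* was at 9.56, 11.7 and 9.67 TPM in the irises and at 8.54, 6.34, 9.13, 6.61 and 5.93 TPM in the explants. Again no explant reached the lowest iris (log2 fold change −0.41, SE 0.17, 95% interval −0.79 to −0.03; edgeR, adjusted p = 0.154). These levels rest on 49 to 74 counts per sample, so counting error makes up most of the spread between irises (11.6% seen, 12.3% from counting). *Pax6* and *Foxc1* were the 2 of 7 factors whose explants all lay below all irises, as did 13.9% of the genes tested.

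*Tfap2b* had the lowest p of the 7. It was at 41.7, 54.8 and 49.3 TPM in the irises and at 42.8, 30.5, 36.3, 34.1 and 26.2 TPM in the explants, and explant 1 overlapped with iris 1. Its log2 fold change was −0.43 (SE 0.12, 95% interval −0.70 to −0.15; edgeR, adjusted p = 0.0504). With DESeq2 the adjusted p was 0.0144 and without explant 1 edgeR gave 0.0187. Under RLE size factors edgeR gave 0.0437, and with library size alone 0.0369. These were the 4 of 18 alternatives under 0.05, in a range of 0.0144 to 0.477. The fold change stayed under the limit for a call in each of the 18.

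*Otx1* was at 81.5, 69.0 and 71.9 TPM in the irises and at 81.8, 58.9, 70.6, 74.4 and 52.8 TPM in the explants. *Six3* was at 12.3, 12.5 and 11.5 TPM in the irises and at 11.3, 12.3, 11.5, 10.5 and 5.00 TPM in the explants. For both the groups overlapped, with log2 fold changes of −0.04 (95% interval −0.28 to 0.20; edgeR, adjusted p = 0.838) and −0.17 (95% interval −0.68 to 0.34; adjusted p = 0.665). The interval of *Otx1* was the narrower.

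*Six6* was at 16.2, 17.3 and 24.4 TPM in the irises and at 21.9, 21.1, 23.98, 22.1 and 9.90 TPM in the explants. *Lmx1b* was at 13.8, 10.9 and 9.82 TPM in the irises and at 10.8, 13.2, 11.998, 13.3 and 8.13 TPM in the explants. For both genes 4 explants lay within the range of the irises and explant 6 below it, with log2 fold changes of 0.12 (95% interval −0.42 to 0.66; edgeR, adjusted p = 0.788) and 0.09 (95% interval −0.31 to 0.49; adjusted p = 0.778). Neither interval leaves out 0, and that of *Six6* was the widest of the 7.

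*Foxc2* (ENSMUSG00000046714, chromosome 8, 121116171 to 121118895), the close relative of *Foxc1*, had 0, 2, 0, 1 and 2 counts in explants 1, 2, 4, 5 and 6. It had 0 counts in the irises, livers, hepatocyte preparations and in vitro spheroids. The limit of 3 counts over the 3 irises corresponds to 0.226 TPM. At this depth *Foxc2* was not detectable in iris, and the 5 counts in explants are too few for a comparison. The gene *Gm20388*, whose span holds *Foxc2* on the same strand, was at 40.8 TPM in the irises and shares 0 exon bases with it.

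An explant contains RNA of the spheroid as well as of the iris, so a level in TPM depends on the share of iris RNA. That share was followed on 1410 iris-specific genes, which had at least 5 TPM in the iris and at least 20 times their mean in each of livers, hepatocyte preparations and in vitro spheroids, the 8 factors being left out. Relative to the mean of the irises, the median of these genes was 87.7%, 71.2%, 86.4%, 81.6% and 56.8% in explants 1, 2, 4, 5 and 6, with a mean of 76.7% ± 12.9 (SD, n = 5). In bulk RNA, fewer iris cells and less RNA per iris cell cannot be told apart.

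On the same scale the factors fell on both sides of the iris-specific genes. *Tfap2b* averaged 69.9% ± 12.8 (SD, n = 5) of the iris, *Foxc1* 70.9% ± 13.9, *Pax6* 80.4% ± 13.1 and *Six3* 83.5% ± 24.2. *Otx1* averaged 91.3% ± 15.9, *Lmx1b* 99.98% ± 18.6 and *Six6* 102.6% ± 29.2. *Otx1* and *Lmx1b* lay above the iris-specific median in each of the 5 explants, and *Six6* in each except explant 6. Among the iris-specific genes, *Otx1* held percentiles from 64.5 to 85.1 over the explants and *Lmx1b* from 62.3 to 92.4. Many of these genes thus lay higher, and how many were above the median in all 5 explants was not counted.

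**Figure D2:**
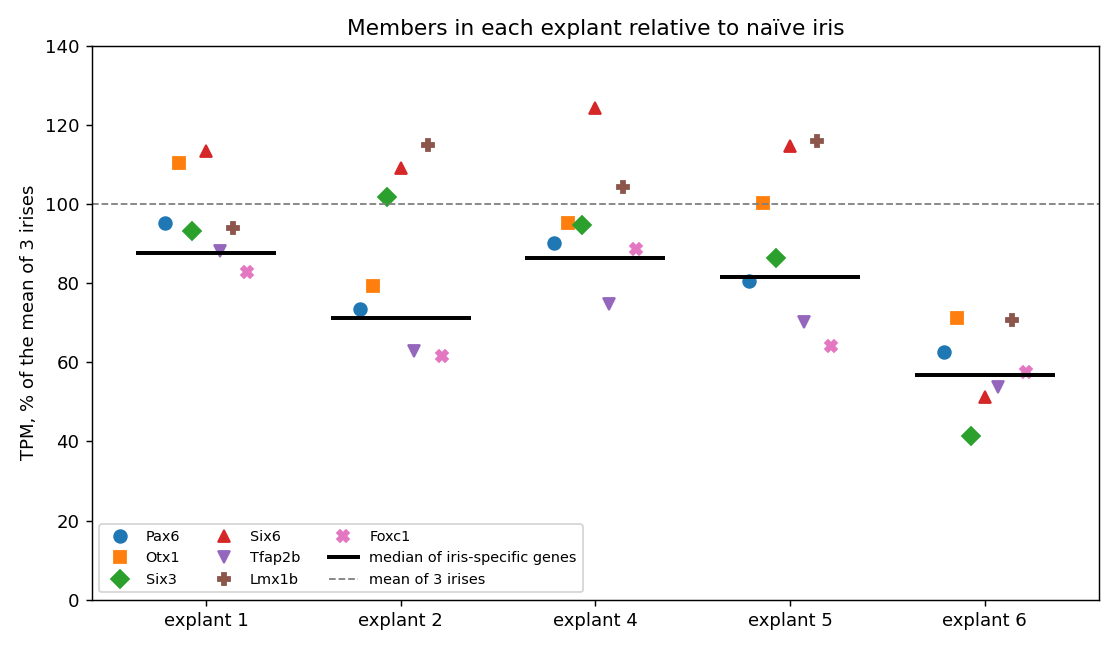
TPM of 7 factors in each explant, as a percentage of the mean of the 3 naïve irises (vertical axis; dashed line at the iris mean), with the median of the 1410 iris-specific genes in that explant as a black bar. The bar runs from 56.8% in explant 6 to 87.7% in explant 1, *Otx1* and *Lmx1b* sit above it throughout, and all 7 factors are lowest in explant 6.

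To ask whether a factor differed from other genes of the iris, the counts were scaled to the iris-specific genes and tested again. This moved the median of all genes tested from 0.01 to 0.30 on the log2 scale and that of the iris-specific genes from −0.27 to 0.01. None of the 7 factors was called, whereas 8.98% of genes were (8.84% higher and 0.143% lower). Without the fold change limit it was 0 of 7 again, against 21.1% of genes (20.7% higher and 0.388% lower). At an unadjusted p under 0.05, *Otx1* was the only factor listed as higher (38.9% of genes) and none was listed as lower (1.18%). The median of the factors became 0.10, with 5 of 7 above 0, so their direction depends on the scaling.

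*Six6* had a scaled log2 fold change of 0.39 (95% interval −0.07 to 0.84; edgeR, adjusted p = 0.179), *Lmx1b* of 0.38 (95% interval −0.02 to 0.78; adjusted p = 0.139) and *Otx1* of 0.24 (95% interval 0.02 to 0.47; adjusted p = 0.09997). The 3 with the lowest unscaled values came close to 0, at 0.06 for *Pax6* (95% interval −0.12 to 0.24), −0.12 for *Foxc1* (−0.50 to 0.26) and −0.14 for *Tfap2b* (−0.41 to 0.12). None of these passed correction. Without explant 6, *Six6* was at 0.49 with an adjusted p of 0.0478, the lowest of its 15 alternatives, the highest being 0.405.

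**Figure D3:**
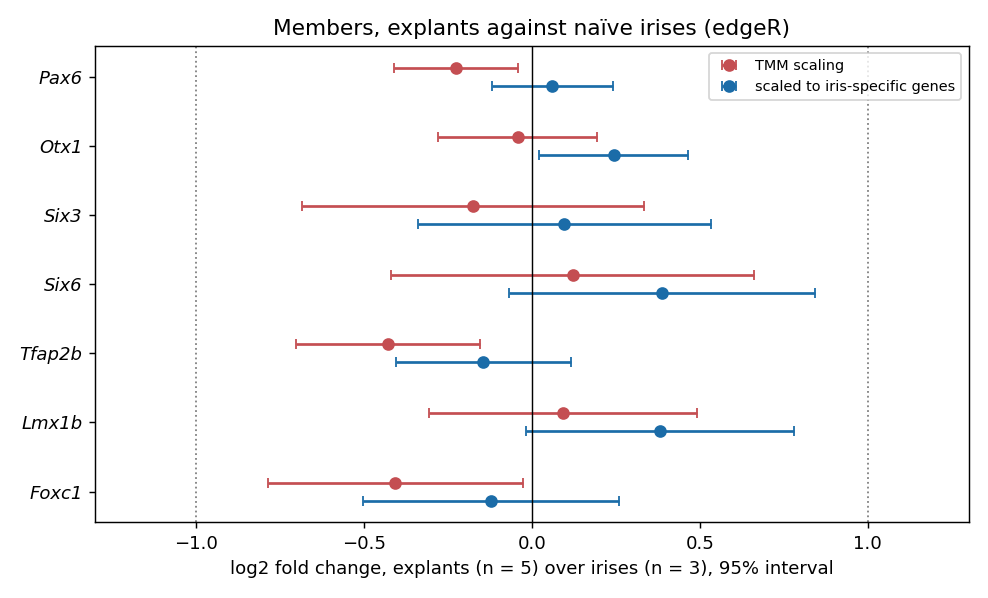
Log2 fold change of 7 factors between explants (n = 5) and naïve irises (n = 3) from edgeR, with 95% intervals, under TMM scaling (red) and scaling to iris-specific genes (blue). Dotted lines at −1 and 1 mark the limit for a call, which no interval crosses, and the scaled values lie to the right of the unscaled ones for every factor.

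Among the explants, number 6 stood apart. It had the lowest level of all 7 factors, and was the lowest for 935 of the 1410 iris-specific genes (66.3%). *Six3* in explant 6 was at 43.97% of the mean of the other 4 explants (5.00 against 11.4 ± 0.76 TPM, SD) and *Six6* at 44.5% (9.90 against 22.3 ± 1.24 TPM). The other 5 factors were at 65.9% to 77.4%, near the median of 67.8% over the iris-specific genes (quartiles 53.4% and 80.2%). The optic cup gene *Otx2*, a homeodomain factor, was at 55.6% of the others in explant 6. *Mitf*, the factor of pigment cells, was at 74.1%.

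Markers of tissues next to the iris also differed in explant 6. Retina markers had a median of 9.01% of the mean of the other explants, and 16 of 17 were the lowest there, where the melanocyte markers had a median of 86.0% and the iris muscle markers of 87.0%. The ciliary epithelium markers had a median of 60.7%, and 11 of 12 were the lowest. Hepatocyte markers were at a median of 140.7% and macrophage markers at 195.5%. Retina markers summed to 630, 1206, 609, 2348 and 298 TPM in explants 1, 2, 4, 5 and 6. *Six6* was at 21.1 to 23.98 TPM in explants 1, 2, 4 and 5 and at 9.90 TPM in explant 6. In irises 1, 2 and 3 the retina markers summed to 1645, 1195 and 4071 TPM, and *Six6* was at 16.2, 17.3 and 24.4 TPM. The part of retina or ciliary tissue in the levels of *Six3* and *Six6* was not tested.

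**Figure D4:**
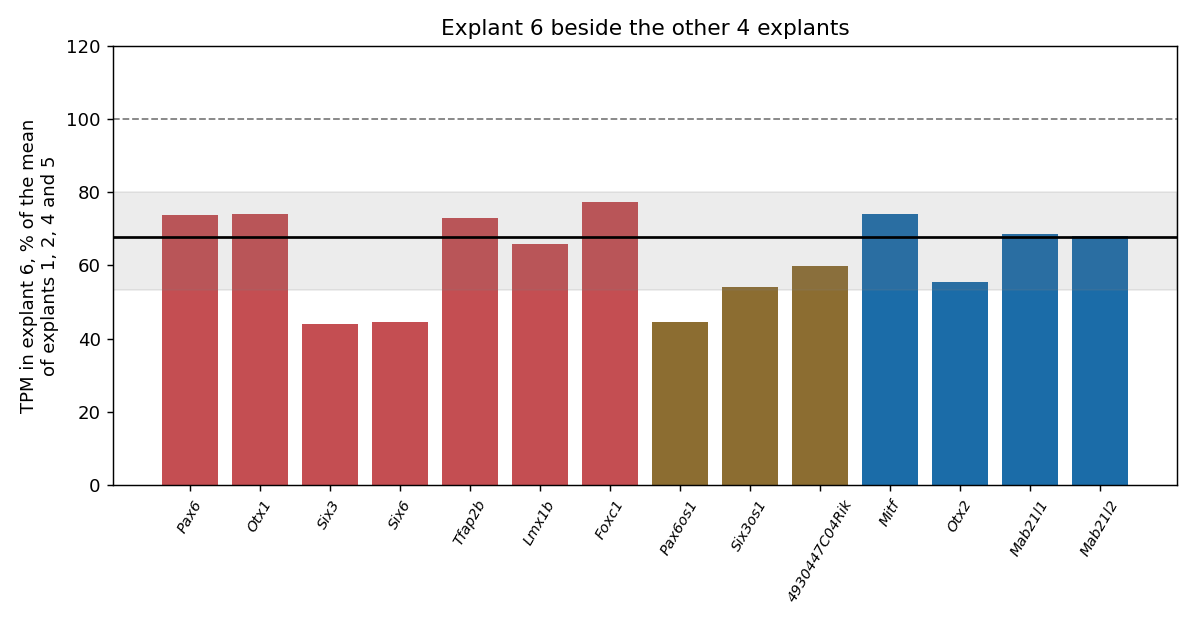
TPM in explant 6 as a percentage of the mean of explants 1, 2, 4 and 5 (vertical axis, from 0), for 7 factors (red), 3 genes that overlap a factor on the other strand (brown) and 4 other eye transcription regulators (blue). The line marks the median of iris-specific genes at 67.8% and the grey band their quartiles; *Six3*, *Six6* and *Pax6os1* lie below the band.

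Several factors share their locus with a gene on the opposite strand, and the counting took no account of strand. *Pax6os1* overlaps the 5′ part of *Pax6* with 0 shared exon bases. It was at 80.8, 72.2 and 73.8 TPM in the irises and at 46.4, 46.1, 59.4, 43.9 and 21.9 TPM in the explants. All explants lay below all irises, at a log2 fold change of −0.71 (95% interval −1.20 to −0.23; edgeR, adjusted p = 0.0634), and −0.45 when scaled to iris-specific genes (adjusted p = 0.0929). *Six3os1* shares 106 of the 5446 exon bases of *Six3* and *Gm28528* 168. *Six3os1* was at 24.1 TPM in the irises and 18.5 TPM in the explants (log2 fold change −0.29, adjusted p = 0.260). *4930447C04Rik* shares 192 of the 4009 exon bases of *Six6* and was at 6.66 and 5.17 TPM (log2 fold change −0.28, adjusted p = 0.430). Reads in the shared bases count for both genes, so the values of *Six3* and *Six6*, the low ones included, may hold reads of the other gene. The overlaps are given in exon bases, and the share of reads that fell there was not measured. Small RNA genes inside *Six3* and a gene inside *Lmx1b* share 0 exon bases with them. For *Otx1*, *Tfap2b* and *Foxc1* no annotated gene overlaps.

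Other transcription factors of the optic cup and eye field were counted in the same way. Of 26 listed, 19 were tested, and 0 were called in explants against irises (median log2 fold change −0.09). Among the most abundant in the iris were *Mitf* (207 ± 6.92 TPM; 170 ± 39.2 in explants) and *Otx2* (137 ± 14.4; 121 ± 28.7). When scaled to iris-specific genes 3 passed the adjusted p as higher and 0 were called.

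Among 35 factors of the periocular mesenchyme and neural crest, 20 were tested and 0 were called, with a median of −0.16. Without the fold change limit 1 passed the adjusted p as lower and 0 as higher, beside 2.74% and 9.04% of all genes tested. *Mab21l1* (181 ± 50.5 TPM in irises, 152 ± 34.2 in explants) and *Mab21l2* (127 ± 5.32 and 131 ± 22.5) were among the most abundant. On the scaled values *Sox9*, a factor of neural crest and of progenitor cells, was called higher, just past the limit (log2 fold change 1.004, edgeR, adjusted p = 0.0356), and unscaled it was at 0.68 (adjusted p = 0.0600) and not called. *Sox9* was also expressed in livers, at 5.42 to 9.02 TPM. The 16 cofactors of these proteins, such as *Ldb1*, which binds LIM-homeodomain factors, and *Tle5*, of the Groucho family, were all tested and 0 were called under either scaling.

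Of 19 genes of the retinoic acid pathway, which acts between optic cup and mesenchyme, 17 were tested and 2 were called higher. These were *Rbp4*, the plasma carrier of retinol, which rose from 113 to 146 TPM in irises to 562 to 977 TPM in explants (log2 fold change 2.66, edgeR, adjusted p = 0.000291), and *Cyp26a1*, which degrades retinoic acid (2.21, adjusted p = 0.00434). Both are liver genes in these data, *Rbp4* at 2011 to 2031 TPM and *Cyp26a1* at 5.56 to 27.5 TPM in livers. *Aldh1a1*, a synthetic enzyme, was at 441 ± 21.4 TPM in irises and 506 ± 67.6 in explants and was not called.

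Of 25 signalling genes of the anterior segment all were tested and 0 were called (median −0.10). Among 22 structural and glaucoma genes, of which 21 were found, 19 were tested and 0 were called, but *Loxl1*, which crosslinks elastic fibres, rose by 0.90 (edgeR, adjusted p = 0.00400) and *Col4a1*, a basement membrane collagen, by 0.83 (adjusted p = 0.0150) without reaching the limit. On the scaled values both were called, at 1.19 and 1.15. *Col4a1* was at 29.7 and 20.1 TPM in the in vitro spheroids and 5.61 to 20.5 TPM in livers, beside 16.1 to 20.1 TPM in irises. *Loxl1* was at 0.455 and 0.723 TPM in the spheroids and 2.37 to 9.39 TPM in livers, beside 38.5 to 52.9 TPM in irises. The part of the spheroid in either rise was not tested.

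The identity of the samples was checked with marker lists. Hepatocyte markers summed to 2258 to 2697 TPM in irises, 9202 to 13491 in explants and 25638 to 27722 in livers, and 19 of 20 were called higher in explants than in irises. Melanocyte markers summed to 11876 to 12421 TPM in irises, 8529 to 10881 in explants and 623 to 658 in livers. None of the 13 was called between explants and irises, and 7 passed the adjusted p as lower without the limit. Neighbouring tissues were present in varying amounts. Retina markers summed to 1195 to 4071 TPM in irises and 298 to 2348 in explants, lens markers to 1671 to 2184 and 1056 to 1291, and corneal epithelium markers to 476 to 742 and 326 to 2320. Of the lens markers 5 of 9 tested were called lower in explants, and of the retina markers 1 of 17. The total count was 5449589 to 6789648 per explant, 4596550 to 4881817 per iris and 2718518 to 3871404 in the liver, hepatocyte and spheroid samples.

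For each factor the 2 genes with the most similar profile over the 16 samples were looked up among 19450 genes, by Pearson's r of log2(TPM + 1). They were *Vat1l* and *Synpr* for *Pax6* (r = 0.999 each), *Tnr* and *Cpxm2* for *Otx1* (0.999 each), and *Sv2a* and *Pfn2* for *Tfap2b* (0.998 each). For *Six3* they were *Ogdhl* (0.996) and *Dach1* (0.995), for *Six6* *Il17rd* (0.995) and *Dclk1* (0.995), for *Lmx1b* *Clic6* (0.997) and *Trpm3* (0.996) and for *Foxc1* *Pbx3* (0.997) and *Eif5a2* (0.996). The points fall into an eye and a liver cluster, so these values describe mainly the contrast between the clusters. They say little about the spread within explants. No gene stood among the 2 of more than 1 factor. The names depend on the scale. With a pseudocount of 0.1 in place of 1, none of the 2 names remained for *Tfap2b* and *Lmx1b* and 1 of 2 for each of the other 5, and among genes of at least 10 TPM none remained for *Six6* and 1 of 2 for *Foxc1* and *Six3*.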

How the data were processed

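RNA was profiled by bulk Smart-seq3. Per the file headers and the submitters' processing notes, the authors aligned reads with TopHat2 to mm10, removed duplicates and counted reads per gene with featureCounts 1.4.6-p5 over exons, without strand and with reads assigned to all overlapping genes. The TopHat2 version is not given in the sources used here. They deposited counts for 48 libraries (3 technical libraries for each of 16 samples), summed counts per sample, TPM of these, and corrected values, a score made from TPM by subtracting an iris part from the explants and dividing by the remaining share. The deposited counts per sample equal the sum of the libraries in 100% of values. Symbols came from the corrected table or, for *Foxc1* and *Foxc2*, from GENCODE M21.

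Groups were compared on the counts per sample by the quasi-likelihood test of edgeR 4.0.16 in R 4.3.3, after its filterByExpr filter and TMM scaling, and again after scaling to iris-specific genes. Alternatives used DESeq2 1.42.0, limma-voom 3.58.1, other size factors, no filter, technical libraries a alone, all groups, a replicate block, and each sample left out. The fits were tested on simulated counts with 4-fold changes, which says nothing of smaller ones. The members and lists were chosen with earlier results of these data known. Named are the 8 factors, list genes that were called or among the 3 most abundant in iris, genes that overlap a factor, and most similar genes. *Krt12* was named after its values were seen. Some list genes that the rule would name are not reported here. The corrected values were used only in the closing section. Intervals and limits of detection cover these samples and counting error only.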

Additional observations from a re-analysis of the deposited data

Results flagged for a closer look

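In groups of 5 the distance of the extreme sample to its nearest neighbour, divided by the range, was set against Dixon's critical value of 0.71. Chance passes it in about 1 in 20 groups, and 4 of the 26 tested passed. *Six3* (0.747) and *Six6* (0.793) were low in explant 6. The summed TPM of the anterior segment structural and glaucoma genes (0.825) was also lowest in explant 6, at 689 TPM. That of the corneal epithelium markers (0.766) was highest in explant 4, at 2320 TPM, where *Krt12*, a corneal keratin, reached 576 TPM beside 6.76 to 135 TPM in the other explants.

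The corrected values were not used in the comparisons above. They hold 6 of the 8 factors, without *Foxc1* and *Foxc2*. In 5 of the 6 the median of the corrected explants lay above every liver, at 34.1 for *Pax6*, 6.24 for *Six3*, 29.02 for *Six6*, 7.71 for *Lmx1b* and 26.5 for *Otx1*. *Six6* had 33.7, 24.8, 29.02, 29.4 and 0 in explants 1, 2, 4, 5 and 6, beside 21.9, 21.1, 23.98, 22.1 and 9.90 TPM before correction. *Otx1* had 116.8, 26.5, 0, 75.1 and 22.1, beside 81.8, 58.9, 70.6, 74.4 and 52.8 TPM. *Tfap2b* had 16.3 in explant 1 and 0 in the other 4. The stated correction subtracts the iris mean times an iris share and divides by the remaining share. The values above 0 gave 1 share for every factor in explant 1 (82.0%), explant 2 (68.0%), explant 5 (72.0%) and explant 6 (59.0%). In explant 4 they gave 51.8% for *Six6*, 94.3% for *Six3* and 110.7% for *Lmx1b*, so that no single share yields its values, and the medians above include it.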

How the results depend on the processing

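No factor was called in explants against irises under any alternative, scaled or not. The number of all genes called changed from 1085 to 583 with limma-voom, to 1975 with no fold change limit and to 583 to 1259 with a sample left out; without iris 1, 2 or 3 it was 583, 630 or 603. Samples numbered 1 and 2 without a block, chosen after seeing the data, gave 551. On the scaled values 1506 became 3538 with no limit and 502 to 1750 with a sample left out (562, 502 or 516 without iris 1, 2 or 3). Iris against liver gave 7963 to 8767 with a sample left out; library size alone changed its split from 4606 higher and 3422 lower to 6803 and 1973. The labels do not say whether equal replicate numbers pair the samples. Deviations from the group mean correlated at 0.045 and −0.108 between explant and iris of the same number, which is too little to decide it. The replicate block called 843 genes, 1221 on the scaled values and 7967 for iris against liver, and 0 factors. The log2 fold change changed sign for *Six3* (0.018 with technical libraries a alone, 0.0082 with the replicate block), and with a sample left out for *Six6* (−0.028 without iris 1 to 0.32 without iris 3), *Lmx1b* (−0.011 without iris 3 to 0.21 without iris 1) and scaled *Six3* (−0.024 without explant 2 to 0.20 without explant 6), and the cause was not tested. *Pax6* passed an adjusted p of 0.05 without explant 1 only (0.0464). With CPM in place of TPM the factors averaged 74.3% to 108.4% of the iris. Depth limits *Foxc1*, *Foxc2*, *Lmx1b* and *Six3*, which had at most 152 counts in a sample.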
